A study of Mus musculus with 8 samples.

Results

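The 43 genes described here are mouse genes whose human counterparts are known from autism and intellectual disability, the same group of conditions in which human MEF2C is mutated. They were taken by gene symbol from a list, by a rule that uses no measured value. All 43 were among the 15035 genes of the deposited table, and all passed the filter on low values. They were measured by bulk RNA sequencing of the auditory nerve at postnatal day 21, an age at which mice already hear. The nerve was dissected out of the cochlea. There were 4 libraries from wildtype mice (wild-type libraries 1 to 4) and 4 from mice labelled Mef2c-heterozygote (libraries 5 to 8). Each library held the nerves of the 2 cochleas of 1 mouse. The labels give neither strain, sex and litter nor how the Mef2c allele was made, so a loss of Mef2c in the whole animal cannot be told from one in a single cell type. The design asks which transcripts differ in the nerve when 1 copy of Mef2c is lost.

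The members fall into groups by role. Chromatin regulators are the largest of them. They move nucleosomes (Chd2, Chd8, and Arid1b as a BAF complex subunit), methylate histone H3 (Ash1l, Kmt2a, Kmt2c and Setd2), or bind chromatin and corepressors. A second set holds sequence-specific transcription factors and Med13l, a subunit of the Mediator kinase module. Another set acts on messenger RNA translation and on ubiquitin, among them Fmr1, the fragile X protein, and Ube3a, the Angelman syndrome ligase. The signalling set holds the kinase Dyrk1a and 3 brakes on growth signals, Nf1 on RAS, and Tsc1 and Tsc2 on mTOR. The synaptic and adhesion set holds postsynaptic Shank scaffolds, neuroligins and the neurexins that bind them, Dscam, Reln and the ankyrin Ank2, which ties membrane proteins to the spectrin skeleton. The nerve holds the axons and cell bodies of spiral ganglion neurons, which carry sound-evoked signals from hair cells to the brainstem, together with Schwann cells, other glia and vessels. MEF2C itself is a MADS-box transcription factor of neurons and other cells. In the central nervous system it is known for limiting the number of excitatory synapses.

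The estimated depth was 13363282 to 21507386 reads per library. A normalized count is a read count divided by a size factor of the library. Mef2c had 439, 498, 509 and 402 normalized counts in wild-type libraries 1 to 4 and 583, 705, 735 and 649.8 in libraries 5 to 8. The targeted transcript was thus higher in every library labelled heterozygote, against the label, with a log2 fold change of 0.53 (standard error 0.13), a two-sided exact permutation p of 0.0286, the smallest that 4 against 4 allows, and a limma-trend adjusted p of 0.186. In the authors' deposited table Mef2c had a ratio of 1.44 and an FDR of 0.0162. Values are per gene and do not separate a targeted exon, and every direction below is between libraries as labelled. Xist was near the floor in wild-type library 1 and in library 5 (12.0 and 7.6 normalized counts) and 5175 to 8615 in the others.

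Markers of the cell types that the dissection could hold were read beside the members. The summed level of 15 neuronal marker genes was 214489 to 287838 normalized counts in wild type and 234183 to 280504 in the libraries labelled heterozygote. It was lowest in wild-type library 1, and 0 of the 15 genes had an unadjusted limma-trend p under 0.05. At that p 6.72% of all genes tested were higher and 7.34% lower, so 0 of 15 is near the background and does not show these genes to be level. The oligodendrocyte markers Mag, Mog and Mobp passed an adjusted limma-trend p of 0.05 and fell between wild type and the libraries labelled heterozygote, with log2 fold changes of -0.94, -1.41 and -1.47. Astrocyte markers, 8 in all, summed to 23074 to 33676 normalized counts in wild type and 12712 to 21099 in the others, and in the same order the 6 of 8 neutrophil markers in the table to 145 to 2567 and 737 to 6433. Of the 2567 in wild-type library 1, Ltf alone held 2176. All 6 neutrophil markers had a log2 fold change above 0, and 4 were higher without overlap, against 3.40% of all genes tested. The 8 osteoblast and osteocyte markers summed to 3352 to 10919 in wild type and 6759.6 to 14028 in the others. All 8 had a log2 fold change above 0, with a median of 0.54, and 4 were higher at an unadjusted limma-trend p under 0.05. Of all genes tested, 52.3% were above 0 and 6.72% were higher at that p. Fibroblast markers were higher at that p in 3 of 8, with a median log2 fold change of 0.19. Of 11 markers of cochlear supporting and lateral wall cells, 2 were higher at that p, the tectorial membrane genes Tecta and Otog, with log2 fold changes of 2.91 and 1.07. None of the marker genes of these lists passed an adjusted p of 0.05 apart from the oligodendrocyte ones. None of the neuronal, astrocyte and neutrophil markers measured, nor Mag, Mog or Mobp, was at 0 in all libraries. The part of these cell types in the results below was not tested, and in bulk tissue fewer cells of a type and less RNA per cell cannot be told apart.

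None of the 43 members passed an adjusted p of 0.05 with limma-trend fitted over all 14870 genes tested, where 0.0807% of genes did, 0.00672% upwards and 0.0740% downwards. The smallest adjusted limma-trend p among them was 0.178, for Ash1l. The log2 fold change was above 0 for 37 of 43 members (86.0%, against 52.3% of all genes tested), with a median of 0.24 against 0.015 for all genes. At an unadjusted limma-trend p under 0.05, 14 members (32.6%) were higher in the libraries labelled heterozygote and 0 were lower, where 6.72% and 7.34% of all genes tested were. The genotypes did not overlap for 5 members (11.6%), all higher in the libraries labelled heterozygote, against 3.40% of all genes higher and 3.86% lower without overlap.

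The count of 14 varied with single libraries. Leaving out wild-type library 1, 2, 3 or 4 gave 7, 13, 20 or 9 members, against a background of 6.50%, 6.42%, 11.6% or 4.90% of all genes. Leaving out library 5, 6, 7 or 8 gave 9, 6, 11 or 3, against 6.21%, 5.14%, 4.96% or 3.85%. With both libraries low in Xist left out it was 6, against 7.16%. Wild-type library 1 was the lowest of the 8 libraries for 26 members (60.5%, against 27.6% of all genes tested), and library 8 was the highest for 20 (46.5%, against 12.9%). Wild-type library 1 also had the fewest estimated reads of the 8 libraries (13363282), and the part of depth was not tested. The members' median deviation from each gene's own mean, on the log2 scale, was -0.32, -0.077, 0.11 and -0.11 in wild-type libraries 1 to 4 and 0.084, 0.069, 0.060 and 0.22 in libraries 5 to 8. Wild-type library 3 lay above libraries 5, 6 and 7, so the library medians of the genotypes overlapped.

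**Figure D1:**
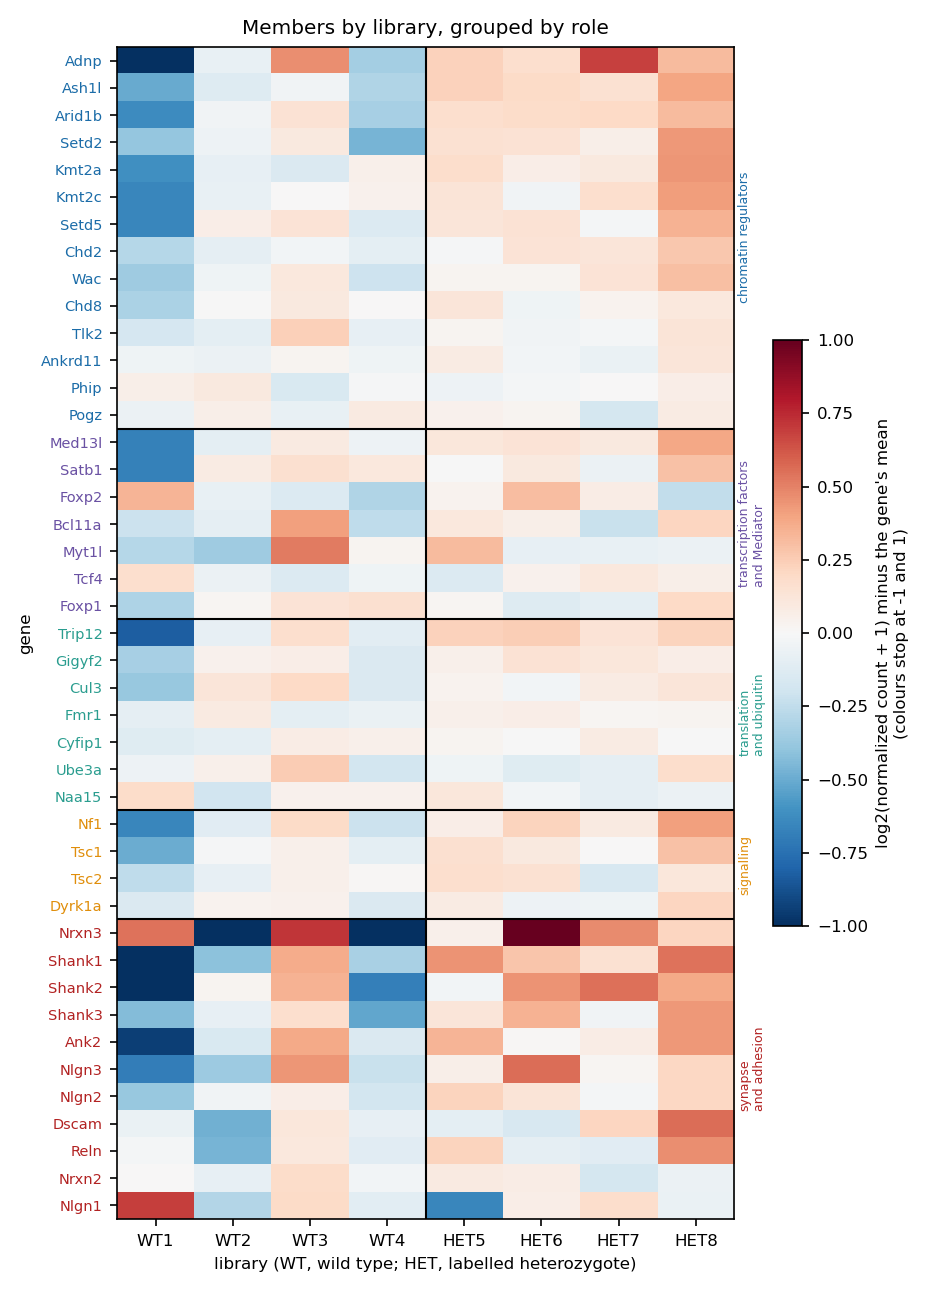
Deviation of log2(normalized count + 1) from the gene's mean over the 8 libraries, 1 row per member, 1 column per library, grouped by role and, within a role, ordered by the fold change. Blue cells gather in the column of wild-type library 1, the lowest library for 26 of 43 members, and red cells in that of library 8, the highest for 20.

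Chromatin regulators held the members with the clearest separation. Of 14, 13 had a log2 fold change above 0, 7 were higher at an unadjusted limma-trend p under 0.05, and 4 did not overlap between genotypes, where the shares of all genes tested were 52.3%, 6.72% and 3.40%. The count of 7 was 4 without wild-type library 1, against 6.50% of genes. Ash1l, a histone H3 lysine methyltransferase that opposes Polycomb silencing, lies on chromosome 3, 88950622 to 89079375 (GRCm38, the build also called mm10). It had 1142, 1483, 1584 and 1320.2 normalized counts in wild-type libraries 1 to 4 and 1907, 1852, 1809 and 2137 in libraries 5 to 8. Every library labelled heterozygote was above every wild-type library, with 0.49 as the log2 fold change, a standard error of 0.11, and limma-trend p of 0.00108 unadjusted and 0.178 adjusted. In the authors' deposited table Ash1l had a ratio of 1.39 and an FDR of 0.019, and it was the 1 member with an FDR under 0.05 there, where 0.672% of genes were higher and 0.938% lower under that FDR. At an unadjusted p under 0.05 in the authors' deposited table, 12 members were higher, where 6.76% of genes were. Ash1l kept an unadjusted limma-trend or limma-voom p under 0.05 in all 18 alternative settings, with log2 fold changes of 0.21 to 0.56. Its adjusted limma-trend or limma-voom p was 0.0399 to 0.59 over those settings, and under 0.05 in 1, the fit without wild-type library 3.

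Arid1b, the subunit of the BAF nucleosome remodeller most often mutated in intellectual disability, had 815, 1230.2, 1393 and 1001 normalized counts in wild-type libraries 1 to 4 and 1418, 1432, 1450.3 and 1570.5 in libraries 5 to 8. The gap between the highest wild-type library and the lowest library labelled heterozygote was small (log2 fold change 0.43, standard error 0.15, limma-trend p 0.0129 unadjusted and 0.278 adjusted). For the H3K4 methyltransferase Kmt2a the order was similar, and it had 1106, 1595, 1528 and 1748 normalized counts in wild-type libraries 1 to 4 and 1908, 1770.5, 1804 and 2299 in libraries 5 to 8. Here too the genotypes did not overlap, by a narrow margin, with wild-type library 1 far below the other 3 (log2 fold change 0.39, standard error 0.14, limma-trend p 0.0171 unadjusted and 0.283 adjusted). Its relative Kmt2c overlapped. Kmt2c had 937, 1400.5, 1481 and 1521 normalized counts in wild-type libraries 1 to 4 and 1613, 1441, 1658 and 1976 in libraries 5 to 8. Wild-type library 1 was again the low one, and library 6 lay within the wild-type range (log2 fold change 0.34, standard error 0.16, limma-trend p 0.0489 unadjusted and 0.354 adjusted).

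The nucleosome remodeller Chd2 had 1024, 1177, 1224 and 1167 normalized counts in wild-type libraries 1 to 4 and 1239, 1373, 1358 and 1504 in libraries 5 to 8. All 4 libraries labelled heterozygote were above wild type, with library 5 only just so (log2 fold change 0.25, standard error 0.099, limma-trend p 0.0254 unadjusted and 0.307 adjusted). Setd2, which writes H3K36 trimethylation along transcribed genes, had 946, 1195, 1322 and 895 normalized counts in wild-type libraries 1 to 4 and 1375, 1364, 1287 and 1669.9 in libraries 5 to 8. Library 7 lay below wild-type library 3, so the genotypes overlapped (log2 fold change 0.40, standard error 0.14, limma-trend p 0.0139 unadjusted and 0.278 adjusted). Adnp, part of the ChAHP chromatin complex, had 282, 729.7, 1059 and 607 normalized counts in wild-type libraries 1 to 4 and 899.5, 865, 1236 and 957 in libraries 5 to 8. Its fold change was the largest of the chromatin regulators, and its wild-type values ran over a wide range, from 282 to 1059 normalized counts, so that wild-type library 3 exceeded all but library 7 (log2 fold change 0.70, standard error 0.31, limma-trend p 0.0442 unadjusted and 0.344 adjusted). Wac, an adaptor for histone H2B ubiquitination, had 1078 to 1701 normalized counts over the 8 libraries (log2 fold change 0.25) and Setd5, a SET domain protein, 824 to 1646 (log2 fold change 0.29), with unadjusted limma-trend p of 0.0543 and 0.0903. The remaining chromatin members differed less. The remodeller Chd8 had 1304 to 1770.5 normalized counts over the 8 libraries (log2 fold change 0.11) and the chromatin assembly kinase Tlk2 839.7 to 1116 (log2 fold change 0.055). Ankrd11, which recruits histone deacetylases, was even across libraries, at 3627 to 4112 (log2 fold change 0.055), as was Phip, a reader of methylated histones, at 1025 to 1217 (log2 fold change 0.00019). Pogz, a zinc finger protein of heterochromatin, had 716 to 859 (log2 fold change -0.0085), the 1 chromatin regulator with a log2 fold change below 0.

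**Figure D2:**
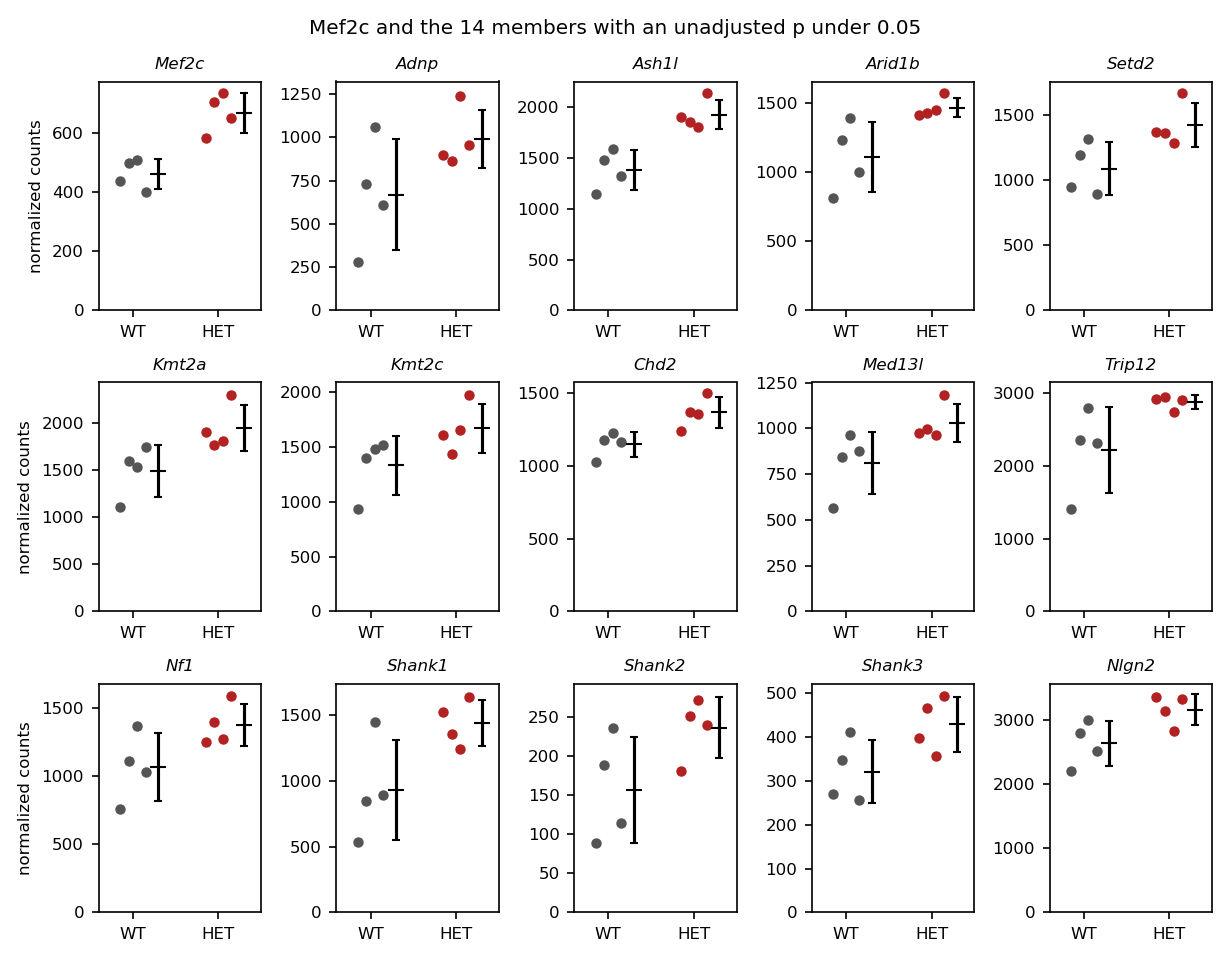
Normalized counts of Mef2c and of the 14 members with an unadjusted limma-trend p under 0.05, 1 panel per gene with its own vertical axis from 0, 1 point per library, in the order of the replicate numbers, wild type (WT) in grey and labelled heterozygote (HET) in red. The bar beside each group is the mean with its SD. Points of the genotypes do not overlap for Mef2c, Ash1l, Arid1b, Kmt2a, Chd2 and Med13l.

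Of the 7 transcription factors and Mediator genes, 1 was higher at an unadjusted p under 0.05, where 6.72% of all genes tested were, and the class median was 0.075. That gene was Med13l, which links the Mediator kinase module to RNA polymerase II transcription and had 566, 844, 962 and 874 normalized counts in wild-type libraries 1 to 4 and 976, 997, 965 and 1183 in libraries 5 to 8. The genotypes did not overlap, by 965 against 962 normalized counts at the nearest (log2 fold change 0.37, standard error 0.16, limma-trend p 0.037 unadjusted and 0.33 adjusted). The others had log2 fold changes from -0.0046 to 0.17, each with an unadjusted limma-trend p above 0.05. Foxp1 and Foxp2, forkhead repressors tied to language disorders, had 1459 to 2073 normalized counts over the 8 libraries (log2 fold change -0.0046) and 326 to 507 (log2 fold change 0.086). The bHLH factor Tcf4 of Pitt-Hopkins syndrome had 2087 to 2577 (log2 fold change 0.034). Satb1, a genome organiser, had 337 to 662 (log2 fold change 0.17), the neuronal repressor Myt1l 390.3 to 717 (log2 fold change 0.050) and Bcl11a, a zinc finger repressor, 164 to 261 (log2 fold change 0.075).

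The translation and ubiquitin genes were mostly level, with a class median of 0.080 and 1 of 7 higher at an unadjusted p under 0.05, where 6.72% of all genes tested were. Trip12, a HECT ubiquitin ligase, had 1402, 2353, 2800.3 and 2313 normalized counts in wild-type libraries 1 to 4 and 2923, 2953, 2739.5 and 2905 in libraries 5 to 8. The libraries labelled heterozygote lay close together, wild-type library 1 was far below them, and wild-type library 3 fell among them (log2 fold change 0.42, standard error 0.17, limma-trend p 0.0299 unadjusted and 0.316 adjusted). Fmr1, the X-linked gene silenced in fragile X syndrome, had 953, 1078, 948 and 965 normalized counts in wild type and 1046, 1059, 1024 and 1033 in the libraries labelled heterozygote, a narrow range, with a log2 fold change of 0.080. The 2 libraries low in Xist, wild-type 1 and library 5, lay within that range. Its partner Cyfip1, which binds the fragile X protein and the WAVE actin complex, had 1916 to 2201 normalized counts over the 8 libraries (log2 fold change 0.045), and Gigyf2, a translational repressor, 838 to 1170.2 (log2 fold change 0.19). Ube3a had 1682 to 2278 (log2 fold change -0.033), the amino-terminal acetyltransferase subunit Naa15 1272 to 1649.5 (log2 fold change -0.035) and the cullin scaffold Cul3 1700.1 to 2529 (log2 fold change 0.10). These 6 genes all had an unadjusted limma-trend p above 0.05.

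All 4 signalling genes had a log2 fold change above 0, as did 52.3% of all genes tested. However, Dyrk1a and Tsc2 fell on the other side of 0 with the transcript length correction described further on. The class median was 0.21, and wild-type library 1 was the lowest library for each of the 4 genes, against 27.6% of all genes tested. Nf1, the RAS GTPase-activating protein of neurofibromatosis, had 763, 1110.3, 1368 and 1034 normalized counts in wild-type libraries 1 to 4 and 1254, 1397, 1273 and 1591 in libraries 5 to 8. Wild-type library 3 lay above libraries 5 and 7, so the genotypes overlapped (log2 fold change 0.39, standard error 0.16, limma-trend p 0.03 unadjusted and 0.316 adjusted). Tsc1 and Tsc2, partners in the complex that restrains mTOR, had 716 to 1241 normalized counts over the 8 libraries (log2 fold change 0.28) and 1313 to 1754 (log2 fold change 0.14), and Dyrk1a 998 to 1281 (log2 fold change 0.10), with unadjusted limma-trend p of 0.0541, 0.223 and 0.331. None of these 3 passed an unadjusted p of 0.05.

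The synaptic and adhesion genes had the largest fold changes and the widest spread. Of 11, 9 had a log2 fold change above 0, 4 were higher at an unadjusted p under 0.05, and for 0 were the genotypes free of overlap. The shares of all genes tested were 52.3%, 6.72% and 3.40%, so 0 of 11 without overlap is near the background. Shank1, a scaffold of excitatory postsynaptic densities (chromosome 7, 44310253 to 44360572, GRCm38), had 536, 843, 1446 and 893 normalized counts in wild-type libraries 1 to 4 and 1525, 1358, 1241 and 1633 in libraries 5 to 8. Wild-type library 3 lay among the libraries labelled heterozygote and the other wild-type libraries below all of them (log2 fold change 0.71, standard error 0.23, limma-trend p 0.00999 unadjusted and 0.266 adjusted). Shank1 kept an unadjusted limma-trend or limma-voom p under 0.05 in all 18 alternative settings, with log2 fold changes of 0.45 to 0.95. Its adjusted limma-trend or limma-voom p was 0.0279 to 0.616, under 0.05 in 1, the fit without wild-type library 3.

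Its relative Shank2 had 88.2, 188, 236 and 115 normalized counts in wild-type libraries 1 to 4 and 181, 252, 271 and 240 in libraries 5 to 8. Wild-type libraries 2 and 3 lay within the range of the libraries labelled heterozygote, and 1 and 4 below it (log2 fold change 0.68, standard error 0.29, limma-trend p 0.0383 unadjusted and 0.333 adjusted). Shank3, the gene of Phelan-McDermid syndrome, had 271, 347, 412 and 256 normalized counts in wild-type libraries 1 to 4 and 399, 466, 357 and 495 in libraries 5 to 8. Wild-type libraries 1 and 4 were the low ones, and libraries 5 and 7 sat inside the wild-type range (log2 fold change 0.43, standard error 0.18, limma-trend p 0.0345 unadjusted and 0.327 adjusted). All 3 Shank genes were thus higher in the mean of the libraries labelled heterozygote. Nlgn2, the neuroligin of inhibitory synapses, had 2211, 2811, 3010.2 and 2530.5 normalized counts in wild-type libraries 1 to 4 and 3362, 3153, 2836 and 3334 in libraries 5 to 8. Wild-type library 3 exceeded library 7 (log2 fold change 0.27, standard error 0.11, limma-trend p 0.0288 unadjusted and 0.316 adjusted). The other neuroligins went apart. X-linked Nlgn3 had a log2 fold change of 0.42, with normalized counts of 108 and 182 in the libraries low in Xist, wild-type 1 and library 5, and 136 to 258 in the others. Nlgn1, a neuroligin of excitatory synapses, had 83.6 to 213 normalized counts over the 8 libraries (log2 fold change -0.24), the lowest fold change of all members, with an unadjusted limma-trend p of 0.393.

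Among the remaining synaptic members, the giant ankyrin gene Ank2 had 6726 to 17454 normalized counts and a log2 fold change of 0.43, with an unadjusted limma-trend p of 0.078. Wild-type library 1 was again its lowest. The presynaptic adhesion genes Nrxn2 and Nrxn3 had log2 fold changes of -0.039 and 0.90, the latter the largest fold change of all members, with an unadjusted limma-trend p of 0.0909. Dscam, a homophilic adhesion molecule of neurites, and Reln, the secreted guidance protein reelin, had 226 to 465 normalized counts over the 8 libraries (log2 fold change 0.26) and 729 to 1391 (log2 fold change 0.24). Both overlapped between genotypes, with unadjusted limma-trend p of 0.201 and 0.144. For Nrxn2 the values were close in all libraries, at 2096 to 2678 normalized counts.

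Chromatin regulators were then set beside the synaptic and signalling genes, as descriptions without a test. The chromatin regulators had a median log2 fold change of 0.27, the 15 synaptic, adhesion and signalling genes 0.28. At an unadjusted p under 0.05, 7 of 14 (50.0%) and 5 of 15 (33.3%) were higher, where 6.72% of all genes tested were. Without wild-type library 1 these counts were 4 and 2, against 6.50% of genes, and the medians 0.18 and 0.24. With a correction for transcript length the counts were 1 and 1, against 3.98% of genes, and the medians 0.040 and 0.11. In the fit of all 8 libraries, all 4 non-overlapping genes of the pair of groups were chromatin regulators, where 3.40% of all genes tested were higher without overlap. At that share, 0 of the 15 synaptic and signalling genes does not set the groups apart. Arid1b, Kmt2a and Chd2 cleared the highest wild-type library narrowly, at 1418, 1770.5 and 1239 normalized counts against 1393, 1748 and 1224. Library medians, as deviations on the log2 scale, had an SD over wild type of 0.23 (n = 4) for the synaptic and signalling genes, against 0.18 for the chromatin regulators. In both groups wild-type library 1 was lowest (-0.38 and -0.37) and library 8 highest (0.29 and 0.31).

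Transcript length is a property the members share and the list did not use. Their longest annotated transcripts ran from 4409 bases (Fmr1) to 16470 (Kmt2a), with a median of 7922. All 43 were longer than the median of all genes tested, 3403 bases. Fold changes in the whole table moved with length, so the comparison was repeated after removing from each library a smooth trend of its deviations on length. The members' median log2 fold change then went from 0.24 to 0.018, and 25 of 43 were above 0. The median of all genes tested was then -0.013. At an unadjusted limma-trend p under 0.05, 2 members were higher (4.65%, against 3.98% of genes) and 1 was lower, against 7.05% of genes. The share of members called is then near the background. The 2 that were higher were Ash1l and Shank1, with log2 fold changes of 0.21 and 0.46 and limma-trend adjusted p of 0.335 and 0.353. The 1 that was lower was Ube3a, at -0.28 with a limma-trend adjusted p of 0.272. By role, the corrected medians were 0.040 for chromatin regulators, -0.085 for transcription factors and Mediator, 0.0050 for translation and ubiquitin, 0.030 for signalling and 0.14 for synapse and adhesion.

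**Figure D3:**
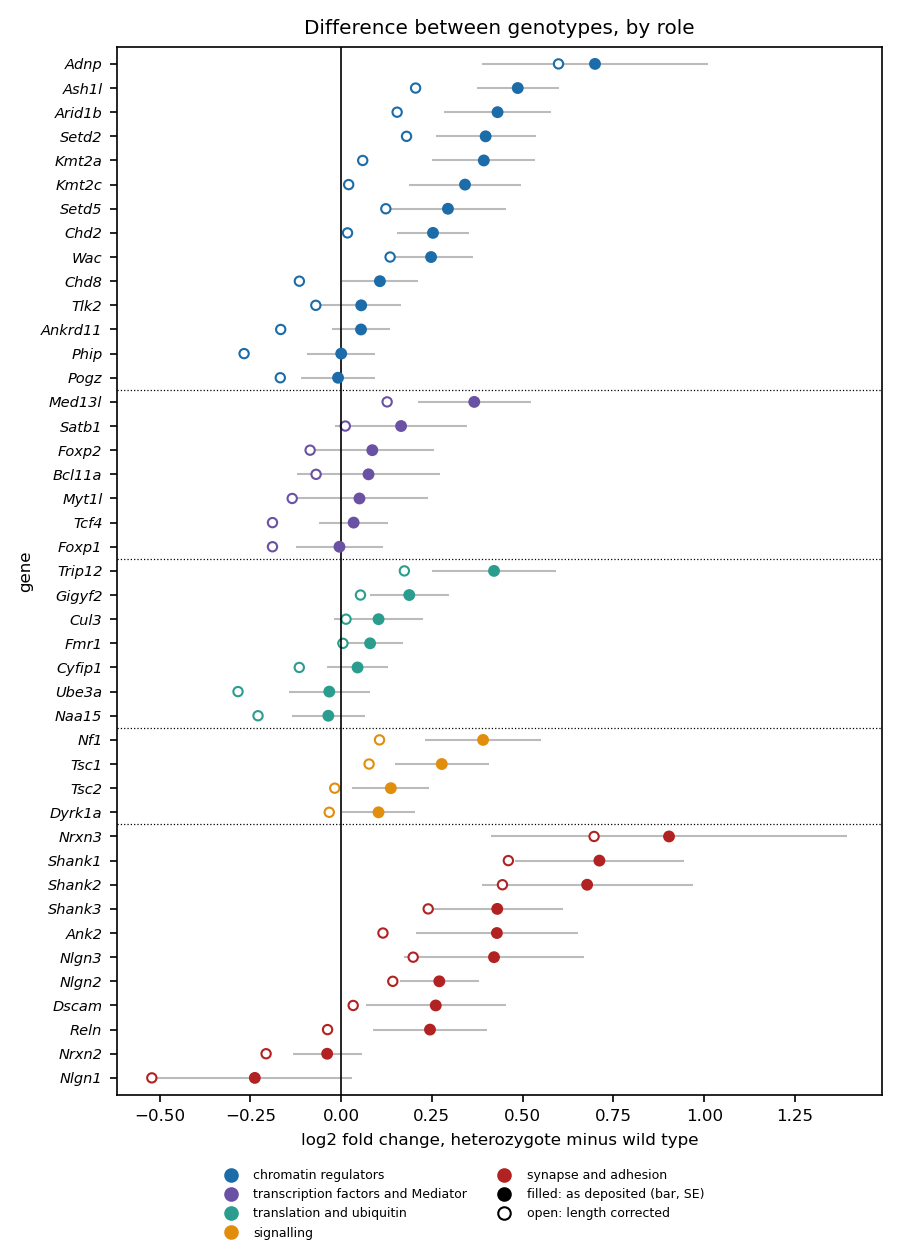
Log2 fold change of each member, libraries labelled heterozygote minus wild type, with its standard error (filled points and bars), and the same after the transcript length correction (open points), coloured by role. Every open point lies to the left of its filled point, and 25 of 43 open points lie above 0, against 37 filled points.

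**Figure D4:**
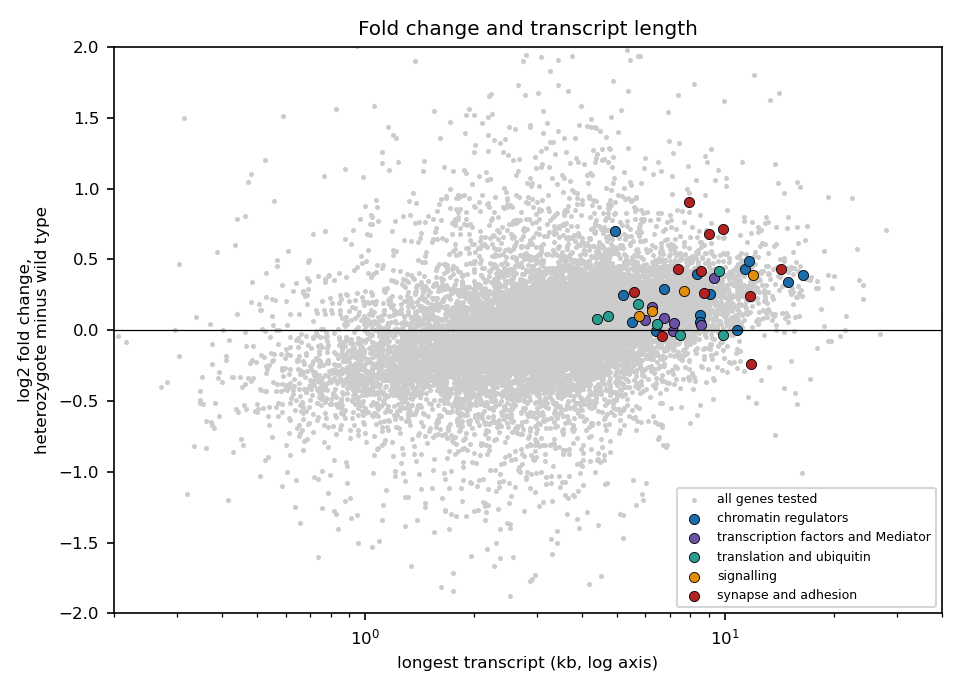
Log2 fold change (vertical) against the length of the longest transcript in kb (horizontal, log axis) for all genes tested with a length (grey) and for the members (coloured by role). The axes leave out 49 genes, among them those beyond a log2 fold change of 2 in either direction. The grey cloud tilts upward with length, and all 43 members lie in its longer part, from 4409 to 16470 bases.

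A wider list of 141 other genes of the same disorders was read from the same fit, of which 137 were in the table and 136 were tested. None passed an adjusted limma-trend p of 0.05. At an unadjusted p under 0.05, 40 were higher (29.4%, against 6.72% of all genes tested) and 1 was lower, against 7.34%. The median log2 fold change was 0.22. By role, 18 of 40 chromatin regulators were higher at that p, 6 of 19 transcription factors and Mediator genes, 3 of 15 translation and ubiquitin genes, 5 of 26 signalling genes and 8 of 36 synaptic genes. The smallest p were those of Nfix, a nuclear factor I transcription factor, Cacna1e, the pore of an R-type calcium channel, and Ep300, a histone acetyltransferase, with log2 fold changes of 0.38, 0.80 and 0.49 and limma-trend adjusted p of 0.211, 0.236 and 0.255. The 1 lower gene was Rheb, the GTPase that Tsc2 switches off, at -0.27, which was chosen after its value was seen. The transcripts of this list were also long, with a median of 7332 bases, and after the length correction 5 of 136 were higher and 6 lower, with a median log2 fold change of 0.066. The background with that correction was 3.98% higher and 7.05% lower, so these counts are not above it. The count of genes higher was 13 with library 8 left out, 24 with wild-type library 4 left out and 66 with wild-type library 3 left out. In those fits 3.85%, 4.90% and 11.6% of all genes tested were higher, so the background moved too.

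Levels of related members were compared as normalized counts per kb of the longest transcript, a scale that holds only as far as that transcript is the one expressed. Ank2 had the highest level of all members, at 819 ± 287 per kb in wild type (SD, n = 4), followed by Nlgn2, Cul3 and Ankrd11 at 474 ± 62.4, 458 ± 80.5 and 439 ± 11.2, which do not differ beyond their spread. Within the neuroligins, Nlgn2 (397 to 604 per kb over the 8 libraries) stood far above Nlgn3 (12.6 to 30.2) and Nlgn1 (7.08 to 18), and the ranges of the latter pair overlapped. Shank1 (54.5 to 166 per kb) exceeded Shank2 (9.81 to 30.2) without overlap. The range of Shank3 (34.8 to 67.2) overlapped with that of Shank1 at its upper end, but Shank1 was above Shank3 in every library. Nrxn2 (314 to 402 per kb) was above Nrxn3 (10.4 to 67.5) in every library. Foxp1 (203 to 289) was likewise above Foxp2 (48.2 to 75.1), and Tsc2 (209.6 to 280.0) above Tsc1 (93.0 to 161). Kmt2a and Kmt2c covered nearly the same range, 67.1 to 139.6 and 62.6 to 132 per kb.

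**Figure D5:**
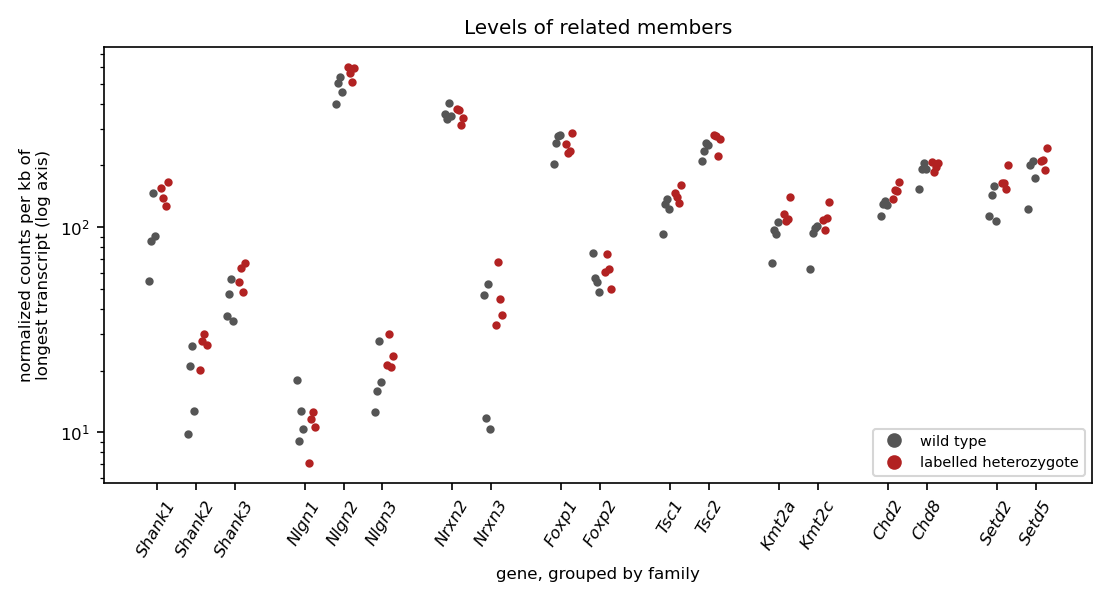
Normalized counts per kb of longest transcript (log axis) for members that belong to shared families, 1 point per library, wild type in grey and labelled heterozygote in red. Nlgn2 (397 to 604 per kb) stands above Nlgn1 and Nlgn3, Nrxn2 above Nrxn3, and the 2 low points of Nrxn3 are wild-type libraries 2 and 4.

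The start regions of the members were also read, since MEF2C acts on DNA. RefSeq windows (GRCm38.p6) of 300 bases, 250 before and 50 after an annotated start, were at hand for 33 of 43 members, 53 windows in all. Median GC content was 63.0% in these windows and 60.7% in the 14964 windows of all genes tested, with a median of 23 and 19 CG dinucleotides. The windows of Arid1b (chr17:4994824-4995123, plus strand) and Kmt2a (chr9:44881240-44881539, minus strand) are shown as those of the members without overlap between genotypes and with the smallest p for which a window was given, the one richest in CG where a gene has several. They hold 42 and 36 CG dinucleotides, in capitals, 5′ to 3′ on the gene's strand.
Arid1b: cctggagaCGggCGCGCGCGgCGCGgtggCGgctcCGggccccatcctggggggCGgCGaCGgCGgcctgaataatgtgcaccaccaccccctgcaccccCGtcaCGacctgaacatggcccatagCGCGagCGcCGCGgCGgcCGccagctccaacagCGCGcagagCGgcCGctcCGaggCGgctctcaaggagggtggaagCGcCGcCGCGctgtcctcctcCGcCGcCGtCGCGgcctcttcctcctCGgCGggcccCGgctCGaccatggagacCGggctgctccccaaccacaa
Kmt2a: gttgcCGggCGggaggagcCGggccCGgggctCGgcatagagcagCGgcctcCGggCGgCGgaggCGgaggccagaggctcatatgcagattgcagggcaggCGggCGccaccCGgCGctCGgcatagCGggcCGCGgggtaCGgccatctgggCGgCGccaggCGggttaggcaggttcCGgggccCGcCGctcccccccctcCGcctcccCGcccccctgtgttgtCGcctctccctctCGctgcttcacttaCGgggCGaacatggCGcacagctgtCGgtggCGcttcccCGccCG

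The pattern CTA, 4 letters of any kind and TAG, the outer letters of the site that MEF2 factors bind and the same on both strands, was in 2 of the 53 member windows (3.77%), against 3.07% of the windows of genes tested and 3.69% of all 32851 windows. The MEF2 consensus itself, which asks for A or T in the centre and allows a second base at either end, was in 0 member windows and in 1.71% of the windows of genes tested. The 2 windows with the first pattern belong to Nlgn1 (chr3:26331860-26332159, minus strand) and Tlk2 (chr11:105178557-105178856, plus strand), shown with the match in capitals. Both had an unadjusted limma-trend p above 0.05 (0.393 and 0.627), with log2 fold changes of -0.24 and 0.055. A match or its absence in these windows describes the letters only.
Nlgn1: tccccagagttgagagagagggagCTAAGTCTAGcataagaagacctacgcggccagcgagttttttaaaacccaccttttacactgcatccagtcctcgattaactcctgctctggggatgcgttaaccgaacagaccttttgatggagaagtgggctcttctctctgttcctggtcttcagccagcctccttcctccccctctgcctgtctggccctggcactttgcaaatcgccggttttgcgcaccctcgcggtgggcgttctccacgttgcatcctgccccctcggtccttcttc
Tlk2: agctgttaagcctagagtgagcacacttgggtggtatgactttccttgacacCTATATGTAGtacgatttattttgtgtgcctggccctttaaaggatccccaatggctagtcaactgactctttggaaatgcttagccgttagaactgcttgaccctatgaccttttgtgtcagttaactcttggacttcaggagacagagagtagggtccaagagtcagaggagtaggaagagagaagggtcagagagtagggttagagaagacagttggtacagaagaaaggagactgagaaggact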

How the data were processed

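Auditory nerve RNA with an integrity number of at least 7 was made into strand-specific poly(A) libraries from 50 ng, per the labels' protocols. Per the file headers, the table that the authors deposited holds for every gene a signal in each sample, judged from its values to be a size-factor-normalized read count. The authors deposited beside it their p-value and FDR per gene, their ratio, log2 ratio and a signed fold change score, the last unused here. Partek, STAR, DESeq2 and the build mm10 are named in the submitters' processing notes, without versions or roles. The annotation and the strand setting of the counting are not given in the sources used here, so reads of overlapping or antisense genes may not be separated.

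The worth of 1 read in each library was taken as the step that makes most values whole multiples, within 0.06 (89.3% to 92.5%), too few to recover counts. The estimated 13363282 to 21507386 reads per library follow from it, and 3 reads are worth 2.37 to 3.89 normalized counts. Genes reaching 10 normalized counts in 4 or more libraries, 14870 of them, were tested on log2(value + 1), a scale that understates changes of low genes, with limma-trend (limma 3.58.1, R 4.3.3), all 8 libraries, no covariates, and Benjamini-Hochberg adjustment over all genes. Mef2c also had an exact permutation test. P-values measure the spread between mice as labelled. On simulated data with 200 of 14870 genes changed, limma-trend recovered 53% of 2-fold and 85% of 4-fold changes and called 9 unchanged genes.

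Members, lists, tests and alternatives were chosen with earlier results of these data known. Values in every library are given for Mef2c and members with an unadjusted p under 0.05 or no overlap, and other members by range or fold change. Of the wider list and the markers, genes with an adjusted p under 0.05 are named, or up to 3 with the smallest p. Some marker results are not reported here. Lengths and positions are from GENCODE M21 (GRCm38), the longest transcript of each symbol, found for 98.9% of genes. Lists were described by counts and medians only. The 18 alternatives were pseudocounts of 0.1 and 10, no filter, a minimum of 50, upper-quartile and quantile scaling, limma-voom on estimated reads, a covariate for low Xist, the 6 libraries not low in Xist alone, a loess correction (span 0.5) for transcript length, and each library left out in turn. Replicate numbers are not shared between groups. Tables and plots were made with Python 3.11.15, pandas 2.3.3, numpy 2.4.6 and matplotlib 3.10.9.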

Additional observations from a re-analysis of the deposited data

Results flagged for a closer look

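Of 88 groups of 4 libraries (Mef2c and the 43 members, each genotype) examined, 6 held a library whose gap to its nearest neighbour was above Dixon's 95% critical share of the group's range on the log2 scale. Chance flags about 5% of groups, so this number is near what chance gives, and no cause was tested. Kmt2c was low in wild-type library 1, at 937 normalized counts against 1400.5 to 1521 in the other wild-type libraries, a gap ratio of 0.830. Satb1 was low in the same library, at 337 against 572 to 605 (gap ratio 0.903). Myt1l was high in library 5, at 622 against 473 to 481 in libraries 6 to 8 (gap ratio 0.940). Med13l was high in library 8, at 1183 against 965 to 997 in libraries 5 to 7 (gap ratio 0.841). For Fmr1, wild-type library 2 was the high one, at 1078 against 948 to 965, and the gap ratio was 0.859 in a group that spans little in all. Tsc2 was low in library 7, at 1399 against 1689.7 to 1754 in libraries 5, 6 and 8 (gap ratio 0.834).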

How the results depend on the processing

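Mef2c kept its direction in all 18 alternatives (log2 fold change 0.38 to 0.60). Its adjusted p ran from 0.0546 to 0.554 over them, from limma-voom in the setting of that name and limma-trend in the others. All 14 members higher at an unadjusted p under 0.05 kept their direction in every alternative, and Ash1l and Shank1 alone kept that p in all. With the transcript length correction the count of members higher went from 14 to 2, of lower from 0 to 1, of the wider list higher from 40 to 5, and of all genes past an adjusted p of 0.05 from 12 to 28 (4 higher, 24 lower). The share of all genes tested at an unadjusted limma-trend p under 0.05 went from 6.72% to 3.98% higher and from 7.34% to 7.05% lower. Medians went to 0.018 for all members, 0.040 for chromatin regulators, -0.085 for transcription factors and Mediator, 0.030 for signalling, 0.14 for synapse and adhesion and 0.066 for the wider list. Log2 fold changes that turned sign were Chd8 -0.12, Ankrd11 -0.17, Phip -0.27, Tlk2 -0.070, Tcf4 -0.19, Foxp2 -0.085, Bcl11a -0.069, Myt1l -0.13, Cyfip1 -0.12, Dyrk1a -0.033, Tsc2 -0.018 and Reln -0.037. Without the 2 libraries low in Xist, 6 of 43 members and 25 of 136 genes of the wider list were higher, against 7.16% of all genes tested. In that fit Chd8 -0.0045, Bcl11a -0.0058, Satb1 -0.0055, Myt1l -0.13 and Nlgn1 0.13 turned sign. Quantile normalization gave 7 genes past the threshold. Small values also turned sign with it (Phip -0.019), with upper-quartile scaling (Phip -0.016) and with limma-voom (Pogz 0.0068 and Foxp1 0.0080). Leaving out each library in turn, the genes past the threshold ran from 0 to 221 (0 without wild-type library 2 or 4 or library 8, and 221 without wild-type library 3, 94 higher and 127 lower), members past it from 0 to 2 (Ash1l and Shank1 without wild-type library 3), members higher from 3 to 20 and the wider list from 13 to 66. In the same fits 3.85% to 11.6% of all genes tested were higher at an unadjusted limma-trend p under 0.05. The median of all members ran from 0.16 to 0.28, of transcription factors and Mediator from 0.016 to 0.23. Members near 0 turned sign within these fits, with log2 fold changes of -0.0054 to 0.19 for Cul3, -0.11 to 0.047 for Foxp1, -0.0034 to 0.21 for Foxp2, -0.060 to 0.23 for Myt1l, -0.11 to 0.019 for Naa15, -0.074 to 0.015 for Nrxn2, -0.050 to 0.033 for Phip, -0.038 to 0.048 for Pogz, -0.033 to 0.25 for Satb1, -0.0047 to 0.095 for Tcf4 and -0.10 to 0.045 for Ube3a. Where a fit left 3 libraries in a group, limma pooled the spread. The cause of these shifts was not tested. No paired analysis was possible because the groups share no replicate numbers. With 4 libraries a group, the simulated data put the recovery of 2-fold changes at 53%, and the members' fold changes were smaller than that, so a member under the threshold is not shown to be level.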

Other observations

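Nrxn3, chosen here after its values were seen, had the widest range of the members. It had 369.9, 93.0, 417 and 82.1 normalized counts in wild-type libraries 1 to 4 and 263, 535, 353 and 294 in libraries 5 to 8. Wild-type libraries 2 and 4 were thus far below the other 6, and the highest library had 6.52 times the lowest. Its close relative Nrxn2 did not follow, with 2375, 2236, 2678 and 2314 in wild-type libraries 1 to 4. Nlgn1 was at its highest in wild-type library 1, at 213 normalized counts against 83.6 to 150.3 in the others, the library in which Shank1, Shank2 and Ank2 were at their lowest. Foxp2 and Tcf4 were also highest in that library, at 507 and 2577 normalized counts, so the low values of wild-type library 1 did not extend to all members.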
